A study of Mus musculus with 18 samples.

Results

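MC38 is a mouse colon adenocarcinoma cell line, and the data described here are the 6 RNA sequencing libraries of MC38 cells grown in culture without a host. They are 3 libraries of control cells, labelled wild type for Mbtps1, and 3 of cells with Mbtps1 depleted, out of 18 samples and 16 RNA libraries in the study. All 6 share the cell line and no drug, cytokine or other treatment is labelled. The labels speak of a knockdown and the study's design text of a knockout, and neither the reagent nor the number of clones is given. An effect of the gene, an effect of 1 clone and an effect of the reagent on other genes therefore cannot be told apart. The study asks how Mbtps1 bears on cancer immunotherapy, and the comparison within culture asks which genes of the cancer cells themselves differ when no immune cells are present. Nothing in the labels says that the 3 replicates were separate cultures, and a p-value here reflects only how much these libraries varied, which may be technical.

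Mbtps1 encodes site-1 protease, which sits in the Golgi membrane and makes the first cut in a group of membrane-anchored transcription factors, among them the SREBP factors of lipid synthesis and ATF6 of the unfolded protein response. A second protease then frees the active part, which enters the nucleus. The same enzyme activates the precursor of the phosphotransferase that tags lysosomal enzymes. Cholesterol genes are therefore a usual place to look, and interferon genes were known from earlier work on these data. The emphasis below is on the remaining genes.

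Levels are given as CPM, the counts scaled to the library's total, and changes as log2 fold changes, knockdown minus control, from edgeR's quasi-likelihood test with its standard error (SE). A gene is said to have risen or fallen where the p-value adjusted by the Benjamini-Hochberg method over all 11905 genes tested was below 0.05. Mbtps1, on chromosome 8, stood at 129, 135 and 118 CPM in the control libraries and at 37.0, 35.7 and 34.8 CPM in the knockdown libraries (-1.84, SE 0.09, adjusted p = 3.1e-06). The groups were far apart, and some Mbtps1 mRNA remained in every knockdown library. Of 16 tested genes on the list of site-1 protease, its partners and its substrates, Mbtps1 was the only one that passed. With offsets for GC content and transcript length 1 rose and 4 fell.

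The libraries held between 14240353 and 15515405 counts. Replicates of a group differed by more than counting noise, with a chi-square per degree of freedom of 6.13 or more for each pair. Knockdown replicate 3 stood apart from the other libraries in composition: with genes split into 5 equal bins by transcript length, those in the shortest bin took 22.5% of its counts, against 17.8% to 20.1% in the other 5, and those in the longest bin took 20.5%, against 23.4% to 26.4%. Counts without it are given below for the lists where they differ most. Of 20 leukocyte markers in the table, 17 were listed at 0, Ptprc and Cd3e among them, and the whole list summed to between 1.97 and 2.57 CPM in the control libraries and between 3.12 and 3.80 CPM in the knockdown libraries. The sum was low in all 6 and higher in every knockdown library, and its part in the results was not tested. Of 33 epithelial markers 22 were present, and Krt18 and Krt19 were among those absent. Of the 22, 12 were listed at 0, including Epcam and Cdh1. The epithelial list summed to between 179 and 197 CPM in control and between 112 and 144 CPM in knockdown libraries. Of 28 mesenchymal markers 21 passed the filter on low counts. That list summed to between 7724 and 8724 CPM in control and between 6935 and 7557 CPM in knockdown libraries. Both sums were lower in every knockdown library. The epithelial origin of the line was thus little visible in the keratin and junction genes present, of which Tjp1, described below, was expressed. In bulk RNA, fewer cells of a kind and less RNA per cell cannot be told apart.

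Depletion of Mbtps1 was accompanied by changes in 9.33% of the genes tested, 1111 in all. Of these, 448 rose, or 3.76% of genes, and 663 fell, or 5.57%. The changes were mostly small, with a median log2 fold change of 0.60 among the genes that rose and -0.55 among those that fell, and 105 rose and 67 fell by at least 1 on the log2 scale. Control and knockdown libraries did not overlap for 1099 of the 1111, and for 31.8% of all genes tested. Genes picked by a small p-value tend to have separate groups, so a lack of overlap adds no support to a call. The calls rested unevenly on single libraries. In the 6 fits that left out 1 library each, 256 of the 1111 genes kept their call every time, 192 that fell and 64 that rose. The number called was 290 without control replicate 1, 330 without knockdown replicate 1 and 466 without control replicate 2, but 1143 without knockdown replicate 3. Of the 142 called genes named here, 57 passed in all 6 of those fits, and these are said below to hold in every fit.

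**Figure D1:**
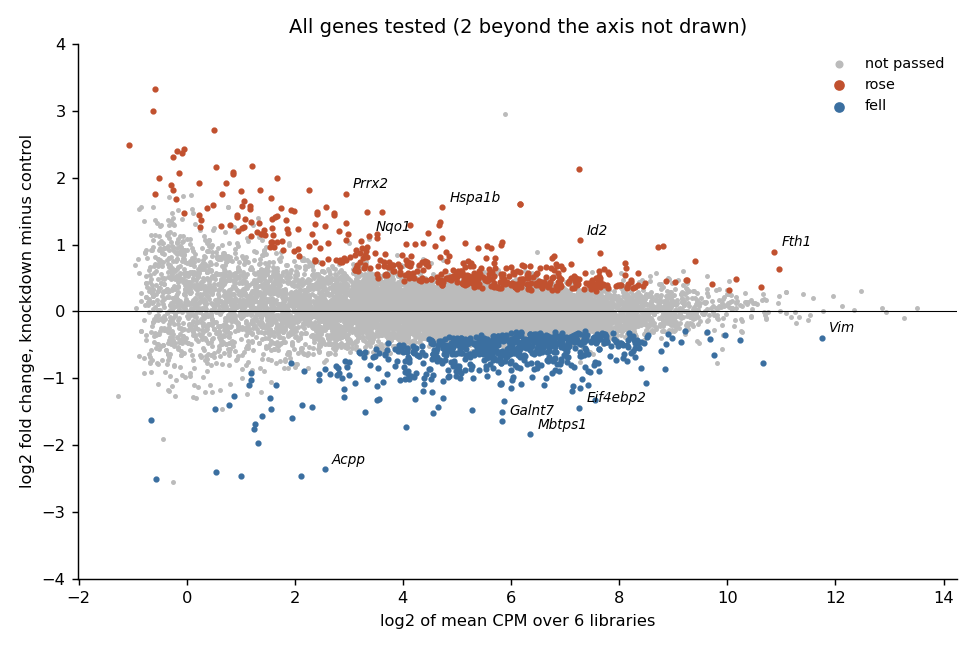
Log2 fold change between knockdown and control (vertical axis) against the log2 of the mean CPM over the 6 libraries (horizontal axis) for the genes tested, with genes that rose in red, genes that fell in blue and the rest in grey. The vertical axis ends at 4 log2 units each way, and 2 genes beyond it are not drawn. Most calls lie within 1 log2 unit of no change, and the 663 falls outnumber the 448 rises.

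The deepest falls among well-expressed genes were in proteins of the secretory route, translation and signalling that have no single pathway in common. Galnt7 encodes a transferase that adds N-acetylgalactosamine to partly glycosylated mucin-type proteins. It was measured at 89.5, 86.0 and 82.9 CPM in control and 28.8, 29.3 and 25.6 CPM in knockdown cells (-1.64, SE 0.10, adjusted p = 7.9e-06). Eif4ebp2, which holds the cap-binding factor eIF4E in an inactive complex, went from 234, 219 and 220 CPM to 79.2, 86.0 and 84.5 CPM (-1.44, SE 0.09, adjusted p = 7.9e-06). In both, every knockdown library lay far below every control library. Lmtk2, a membrane-anchored kinase, had 89.8, 83.3 and 78.1 CPM in control and 29.8, 32.7 and 26.0 CPM in knockdown cells (-1.51, SE 0.11, adjusted p = 5.3e-05). Uhmk1, a kinase that acts on splicing factors, had 273, 260 and 277 CPM against 114, 120 and 90.2 CPM (-1.33, SE 0.11, adjusted p = 8.8e-05). Again the groups were well separated, with knockdown replicate 3 the lowest in each.

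Further falls of this size touched the entry to the secretory route and metal transport. Tram1 encodes a protein of the channel through which new proteins enter the endoplasmic reticulum, and it read 218, 202 and 221 CPM in control and 102, 101 and 88.0 CPM in knockdown cells (-1.14, SE 0.10, adjusted p = 8.8e-05). Slc39a6, a zinc importer, read 196, 184 and 197 CPM against 90.8, 94.1 and 82.7 CPM (-1.12, SE 0.09, adjusted p = 8.8e-05). Kars, the lysyl-tRNA synthetase, read 211, 225 and 267 CPM against 108, 110 and 111 CPM (-1.10, SE 0.10, adjusted p = 1.7e-04). For all of these the knockdown libraries were close to each other and below every control library. Lbh, a transcriptional regulator first described in limb and heart, fell by 1.47 (SE 0.16) and Fkbp14, a prolyl isomerase of the endoplasmic reticulum, by 1.33 (SE 0.17). Genes at lower levels with falls as deep were Tmem185a (-1.52, SE 0.12), the acid phosphatase gene Acpp (-2.36, SE 0.27), the TFIID subunit gene Taf9b (-1.50, SE 0.21), the tyrosine phosphatase gene Ptpn3 (-1.31, SE 0.15) and the teneurin gene Tenm4 (-1.34, SE 0.17). Every gene of this paragraph and the one before held in every fit.

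**Figure D2:**
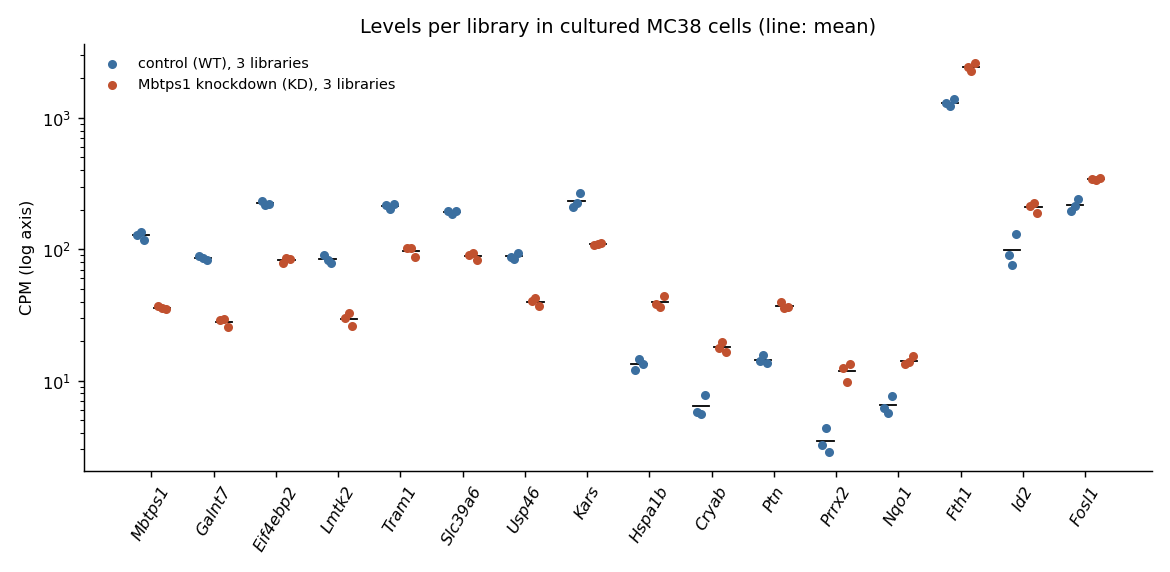
CPM on a log axis for 16 genes in the 3 control libraries (blue) and the 3 knockdown libraries (red), each point a library and each line the mean of 3. No gene shown has overlapping groups: 8 genes from Mbtps1 to Kars are lower in the knockdown, and 8 from Hspa1b to Fosl1 are higher.

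Many of the genes that fell share a 6-base word in the 3' untranslated region (UTR), CTCGGA, and sites of 6 genes that fell by more than 1 on the log2 scale are shown because the word had the highest share of falls among the words of its length that were counted. The word came up in earlier work on these data and its shares are a description. The sites were read from the GENCODE M21 annotation of mouse GRCm38, in the coding transcript with the longest 3' UTR of each gene. All lie on the minus strand and are printed 5' to 3' along the mRNA, with T for U and with the 6 bases in capitals. They are at chr8:57524294-57524323 for Galnt7, chrX:70460948-70460977 for Tmem185a, chr10:61431936-61431965, chr10:61430102-61430131 and chr10:61429903-61429932 for the 3 sites of Eif4ebp2, chr5:74000421-74000450 for Usp46, chr3:97203948-97203977 for Bcl9 and chr4:87773915-87773944 for Mllt3. Acpp and Wasf1, which fell further than these 6, also hold the word in the 3' UTR examined and are not shown. In Wasf1 the word starts at base 27 of that 3' UTR. Whether other transcripts of Wasf1 read this site as coding sequence was not examined.
Galnt7: gtagagaggaaaCTCGGAgaattggtaatt
Tmem185a: tagacctggaacCTCGGAccaccatctgaa
Eif4ebp2 site 1: aatgtgaaatagCTCGGAgtgtaaccctct
Eif4ebp2 site 2: gctcaccagtgcCTCGGAtctcacgggatg
Eif4ebp2 site 3: ctccttgggcttCTCGGAccttcccagttg
Usp46: aattgtttgtgaCTCGGAacttcagcatgc
Bcl9: cctcgcccctgcCTCGGAtgccctctggcc
Mllt3: tatatgaaaacaCTCGGAatgatacaacca

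Outside the 6 bases the sites share little, with A, C, T and G all found just before the word and A, C, G and T just after it. Usp46, a ubiquitin-specific protease, went from 87.5, 83.9 and 93.7 CPM to 40.4, 42.7 and 37.0 CPM (-1.15, SE 0.10, adjusted p = 9.8e-05). Bcl9, a coactivator of beta-catenin, went from 37.9, 43.9 and 32.6 CPM to 15.01, 16.2 and 15.4 CPM (-1.30, SE 0.13, adjusted p = 2.5e-04). Mllt3, a reader of acylated histones in transcription elongation, went from 41.8, 34.4 and 32.7 CPM to 13.5, 15.7 and 11.4 CPM (-1.43, SE 0.15, adjusted p = 3.6e-04). These 3 genes held in every fit, and their groups did not overlap. The word was not a condition of a deep fall: Lmtk2, Uhmk1, Tram1, Kars and Lbh have none in the 3' UTR examined.

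The word was searched on the mRNA strand only, and 1120 of 10949 tested genes with a 3' UTR hold it, or 10.2%. Of these 1120 genes 18.3% fell and 2.23% rose, against 4.42% and 3.90% of the 9829 genes without it. The share that fell was 17.3% with 1 copy and 28.4% of the 102 genes with more copies, whose median log2 fold change was -0.27. The base on either side went with different shares. Where C preceded the word 23.8% of genes fell, where A preceded it 22.0%, with T 15.6% and with G 12.3%. The longer words ACTCGGAA and CTCGGAAT, which overlap it, were held by 99 genes, of which 29.3% fell, and by 77 genes, of which 33.8% fell. Where the word stood in the coding sequence alone, 8.46% of 2779 genes fell, and with it in neither place 2.82% of 7050. Among the 4048 words of 6 bases found in at least 200 of these 3' UTRs it had the highest share of falls, and the next, TCGGAT, had 14.3%. That word overlaps it in 5 bases.

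Seen from the side of the genes that changed, 32.1% of the 639 fallers with a 3' UTR hold the word, and 6.13% of the 408 risers. Among fallers past -1 the share was 42.2%, and among those that fell by less than 0.5 it was 25.1%. Genes with the word have longer 3' UTRs, at a median of 2365 bases against 1100, so the shares were also taken within 4 equal bins of 3' UTR length. With and without the word, 11.1% and 1.42% fell in the shortest bin, 18.8% and 3.12% in the next, 18.4% and 5.93% in the one after and 18.9% and 7.94% in the longest. With offsets for transcript GC content and length the shares over all bins were 20.1% and 6.17%, and without knockdown replicate 3 they were 18.9% and 4.63%. No mature mouse miRNA of the 1738 in the RefSeq table has bases 2 to 7 complementary to the word. What links the word to the falls was not tested. The reagent is not given, so its sequence could not be compared with the word. For these genes too, an effect of the reagent and an effect of the loss of Mbtps1 cannot be told apart.

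**Figure D3:**
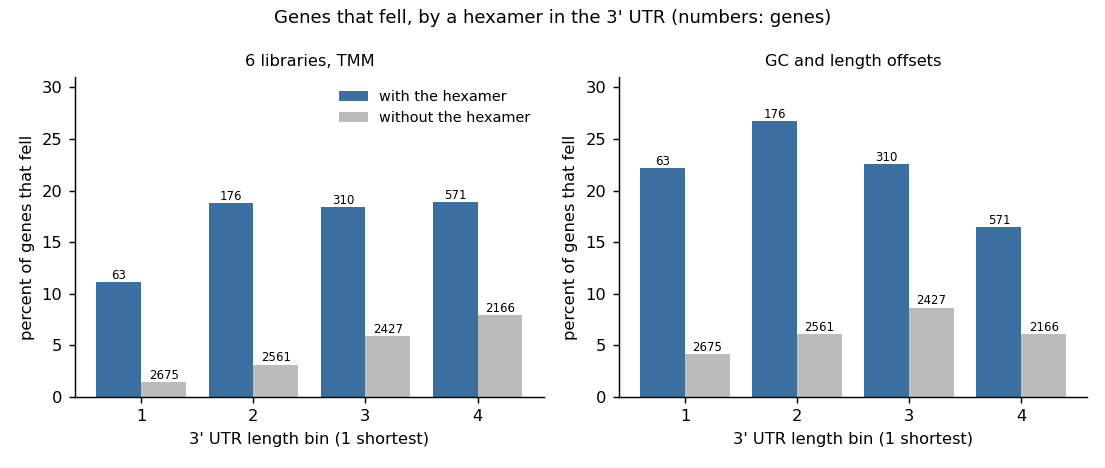
Percent of genes that fell (vertical axis) in 4 bins of 3' UTR length, for genes with the 6-base word (blue) and without it (grey), from the 6 libraries (left) and with offsets for GC content and transcript length (right). Numbers above the bars are genes, and the blue bar is the higher in every bin of both panels, at 18.9% against 7.94% in the longest bin on the left.

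Among the genes that rose were inducible chaperones of the cytosol. These proteins bind unfolded proteins, and their genes are switched on by heat shock factor under protein stress. Hspa1b, an inducible HSP70 gene, stood at 12.04, 14.6 and 13.4 CPM in control and 38.0, 36.5 and 44.1 CPM in knockdown cells (1.56, SE 0.13, adjusted p = 8.7e-05). It shares nearly all of its sequence with Hspa1a, so reads of the pair cannot be fully separated. Cryab, a small heat shock protein gene, stood at 5.81, 5.61 and 7.72 CPM against 17.8, 19.6 and 16.5 CPM (1.48, SE 0.17, adjusted p = 5.6e-04). Both were higher in every knockdown library by a wide margin and held in every fit. Of 23 tested members of the list of cytosolic and mitochondrial heat shock genes, 4 rose, or 17.4% against 3.76% of all genes, and the other 19 did not pass, with a median of 0.11. The remaining risers were Hspe1, the mitochondrial co-chaperonin (0.42, SE 0.10), and Ahsa1, an activator of HSP90 (0.46, SE 0.11). The list had 5 risers without knockdown replicate 3, and 2 without control replicate 1, control replicate 2 or knockdown replicate 1. In the family of J-domain proteins, which direct HSP70 to its clients, 3 of 38 fell, or 7.89% against 5.57% of all genes. Dnajc16 (-0.89, SE 0.12) and Dnajb14 (-0.78, SE 0.11), both membrane-anchored, held in every fit.

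Both ferritin genes and 3 other genes of the iron and antioxidant list rose as well. Ferritin stores iron in a shell of heavy and light chains, and both chains are among the targets of NRF2, the factor that answers oxidative and electrophilic stress. Fth1, the heavy chain, read 1307, 1220 and 1388 CPM in control and 2433, 2291 and 2595 CPM in knockdown cells (0.89, SE 0.09, adjusted p = 3.8e-04). Nqo1, a quinone reductase, read 6.16, 5.67 and 7.58 CPM against 13.3, 13.9 and 15.3 CPM (1.12, SE 0.17, adjusted p = 0.0025). For both genes the lowest knockdown library was well above the highest control library. The light chain gene Ftl1 rose by 0.64 (SE 0.14, adjusted p = 0.019), with knockdown replicate 3 the highest at 2986 CPM. Gstm1, a glutathione transferase (0.84, SE 0.14), and Sqstm1, an autophagy receptor (0.47, SE 0.11), completed the 5 risers among 24 tested members, and the other 19 did not pass. That is 20.8%, against 3.76% of all genes, with a list median of 0.21. Knockdown lay above control without overlap for 12 of the 24, or 50%, against 16% of all genes. Fth1, Nqo1 and Gstm1 held in every fit, and Ftl1 and Sqstm1 passed in 3 of the 6. The list had 3 risers without control replicate 1, control replicate 3 or knockdown replicate 1, and 6 in each of the other fits.

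Several secreted and surface proteins rose. Ptn encodes pleiotrophin, a heparin-binding growth factor, and it read 14.1, 15.8 and 13.6 CPM in control and 39.6, 35.4 and 36.1 CPM in knockdown cells (1.34, SE 0.12, adjusted p = 8.8e-05). The knockdown libraries were tightly grouped and above every control. Itgb7, an integrin chain best known from lymphocytes (1.48, SE 0.17), Siglecg, a sialic acid receptor best known from B cells (1.32, SE 0.18), Tinagl1, a matricellular protein (1.29, SE 0.19), Slco4a1, an organic anion transporter (1.45, SE 0.23), and Tmem176b, a membrane protein of endosomes (1.49, SE 0.22), rose from lower levels. All 6 held in every fit. The serpins, inhibitors of serine proteases, had 3 risers among 11 tested members, or 27.3% against 3.76% of all genes, and a median of 0.42. They were Serpinb9b (1.16, SE 0.17), Serpinb8 (0.74, SE 0.18) and Serpinb6a (0.42, SE 0.12), of which Serpinb9b held in every fit, and 1 of the 11 rose without control replicate 1, control replicate 2 or knockdown replicate 1.

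**Figure D4:**
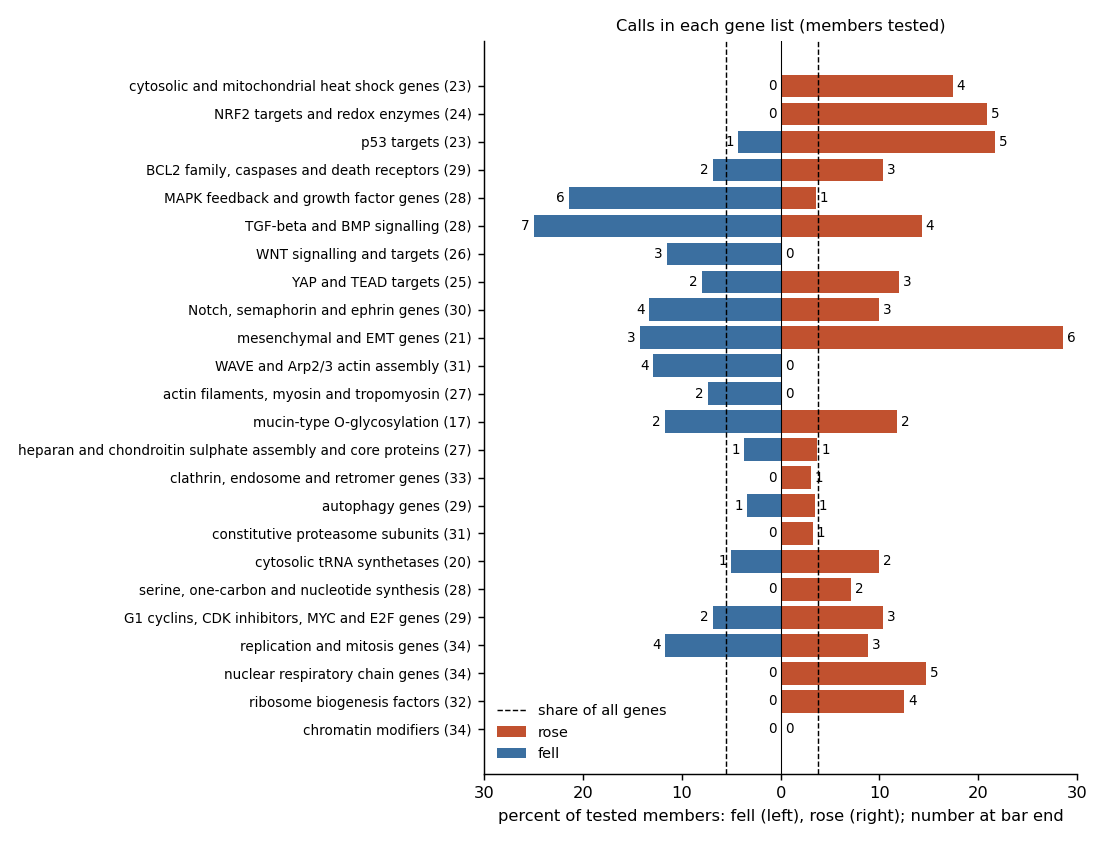
Percent of tested members that fell (left) and rose (right) in 24 gene lists, with the number of tested members in brackets and the number called at each bar end. Dashed lines mark the 5.57% and 3.76% of all genes that fell and rose, and the longest bars are the 6 risers of the mesenchymal list and the 7 fallers of the TGF-beta and BMP list.

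Several genes that damp growth factor signalling fell. ERK, the last kinase of the MAPK cascade, induces its own inhibitors, which act on the receptor, on RAS activation or on ERK itself. The list of MAPK feedback and growth factor genes had 28 tested members, of which 6 fell, or 21.4% against 5.57% of all genes, 1 rose and 21 did not pass, with a median of -0.20. Dusp5, a phosphatase of nuclear ERK, stood at 27.7, 30.02 and 28.3 CPM in control and 17, 18.1 and 20.6 CPM in knockdown cells (-0.63, SE 0.12, adjusted p = 0.0083). Spred3, of a family that blocks RAF activation, stood at 37.7, 35.3 and 29.1 CPM against 21.8, 22.6 and 21.3 CPM (-0.65, SE 0.12, adjusted p = 0.0085). Neither had overlapping groups, and each passed in 5 of the 6 fits. Spry4, a Sprouty inhibitor (-0.60, SE 0.12), Dusp6, a phosphatase of cytosolic ERK (-0.37, SE 0.09), Spred1 (-0.39, SE 0.10) and the receptor gene Fgfr1 (-0.45, SE 0.10) also fell, and Spry4 and Fgfr1 hold the 6-base word. The riser was Fosl1, a subunit of the AP-1 factor, which read 196, 213 and 240 CPM against 340, 334 and 348 CPM (0.65, SE 0.10, adjusted p = 0.0026) and held in every fit. A single member fell without control replicate 1 or knockdown replicate 1 and 2 without control replicate 2, whereas 8 fell without knockdown replicate 3. With GC and length offsets 7 fell and 2 rose, but Spred1 did not pass (-0.17, adjusted p = 0.12).

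In the TGF-beta and BMP pathways several receptors and signal transducers fell, and the Id genes, classical BMP targets, rose. Both ligand families act through paired receptor kinases and SMAD proteins. Of 28 tested members 7 fell, or 25% against 5.57% of all genes, 4 rose, or 14.3% against 3.76%, and 17 did not pass, with a median of -0.20. The ligand subunit gene Inhba read 156, 161 and 150 CPM in control and 111, 113 and 103 CPM in knockdown cells (-0.53, SE 0.09, adjusted p = 0.0040). Among receptors, Bmpr2 (-0.60, SE 0.13), the coreceptor Tgfbr3 (-0.51, SE 0.10) and Acvr1 (-0.36, SE 0.09) fell. Further down the pathway Smad2 (-0.44, SE 0.10), Smad3 (-0.38, SE 0.09) and the corepressor Skil (-0.41, SE 0.11) fell, but with GC and length offsets Smad2 (-0.22, adjusted p = 0.12) and Skil (-0.17, adjusted p = 0.22) did not pass. The risers were the 3 inhibitors of differentiation, which block basic helix-loop-helix factors, and Smad6, an inhibitor of BMP signalling (0.75, SE 0.18).

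Id2 stood at 90.9, 75.4 and 131 CPM in control and 214, 226 and 188 CPM in knockdown cells (1.07, SE 0.17, adjusted p = 0.0037). Id1 stood at 18.0, 17.9 and 22.2 CPM against 34.9, 30.5 and 43.2 CPM (0.89, SE 0.15, adjusted p = 0.0043), although it holds the 6-base word. Id3 stood at 30.6, 38.2 and 32.9 CPM against 61.9, 54.6 and 80.2 CPM (0.94, SE 0.14, adjusted p = 0.0026). No knockdown library of these 3 genes overlapped the controls, and knockdown replicate 3 was the highest for Id1 and Id3 but the lowest for Id2. Inhba and the 3 Id genes held in every fit. The falls of the other members were less stable. In the list 1 member fell without control replicate 1 or knockdown replicate 1, 3 without control replicate 2, and 8 without knockdown replicate 3.

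Other signalling lists had fewer calls. Of 26 WNT genes 3 fell, or 11.5% against 5.57% of all genes, and the rest did not pass. The fallers were Bcl9, the repressor Tcf7l1 (-0.47, SE 0.12) and the kinase Gsk3b (-0.37, SE 0.10, adjusted p = 0.0496). Of these, Gsk3b passed in 1 fit of 6 and did not pass with GC and length offsets (adjusted p = 0.12). A single WNT gene fell without control replicate 1, control replicate 2 or knockdown replicate 1, and 2 without knockdown replicate 3. Of 25 YAP and TEAD target genes 3 rose, or 12% against 3.76% of all genes, and 2 fell, or 8% against 5.57%. Examples were Gadd45b (0.84, SE 0.20) and Dock5, an activator of RAC (-0.62, SE 0.11), and Dock5 held in every fit. That list had no riser and 1 faller without control replicate 1 or knockdown replicate 1, 1 of each without control replicate 2, and 1 riser and 3 fallers with GC and length offsets. Of 19 circadian clock genes 2 fell, or 10.5% against 5.57% of all genes, both holding in every fit. They were Bhlhe40, a repressor of the clock loop, which read 89.6, 99.0 and 59.1 CPM in control and 41.0, 43.5 and 51.0 CPM in knockdown cells (-0.88, SE 0.16), and the output factor Tef (-0.73, SE 0.12).

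Receptors that guide cell migration were among the genes that fell. Robo1, a receptor for Slit proteins, read 39.2, 41.0 and 33.8 CPM in control and 19.4, 21.2 and 17.4 CPM in knockdown cells (-0.98, SE 0.12, adjusted p = 8.4e-04). Nrp1, a coreceptor for semaphorins and VEGF, read 61.1, 59.9 and 69.1 CPM against 39.9, 43.6 and 32.2 CPM (-0.73, SE 0.13, adjusted p = 0.0051). Both hold the 6-base word, held in every fit and had no overlap. In the list of 30 Notch, semaphorin and ephrin genes 4 fell, or 13.3% against 5.57% of all genes. In the same list 3 rose, or 10% against 3.76%, and 23 did not pass. The other calls were the semaphorins Sema3a (-0.49, SE 0.13), Sema7a (-0.93, SE 0.26) and Sema3f (0.92, SE 0.24), the coreceptor Nrp2 (0.39, SE 0.11) and the ephrin ligand Efna1 (0.60, SE 0.13). Sema7a and Sema3f were at under 6 CPM and passed in no fit that left out a library, and Sema3a and Nrp2 passed in 1. Sema3a also did not pass with GC and length offsets (adjusted p = 0.065). The list had 2 risers and 2 fallers without knockdown replicate 3, and no riser and 2 fallers without knockdown replicate 1 or any 1 control library.

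The mesenchymal list split in both directions. Of 21 tested members 6 rose, or 28.6% against 3.76% of all genes, 3 fell, or 14.3% against 5.57%, and 12 did not pass, with a median of 0.04. Cdh2, the N-cadherin of mesenchymal cell contacts, read 40.5, 40.1 and 44.5 CPM in control and 23.1, 21.4 and 20.1 CPM in knockdown cells (-0.96, SE 0.11, adjusted p = 5.6e-04). Zeb1, a repressor of epithelial genes, read 80.9, 72.3 and 68.8 CPM against 46.2, 52.4 and 41.3 CPM (-0.68, SE 0.11, adjusted p = 0.0046). Vim, the intermediate filament vimentin and one of the most abundant mRNAs, read 4078, 3714 and 3864 CPM against 2824, 2863 and 3238 CPM (-0.40, SE 0.09, adjusted p = 0.024). In the other direction, the homeobox factor Prrx2 read 3.22, 4.35 and 2.88 CPM against 12.5, 9.78 and 13.5 CPM (1.76, SE 0.21, adjusted p = 6.2e-04). None of these groups overlapped. The repressor Snai2 (0.94, SE 0.19), the transcription factors Twist2 (0.49, SE 0.09) and Twist1 (0.43, SE 0.12), and the calcium-binding protein gene S100a4 (0.98, SE 0.20) rose too. The remaining riser of the 6 was a collagen gene. Twist1 passed in 1 of the 6 fits and did not pass with GC and length offsets (0.19, adjusted p = 0.17), with limma voom or without the filter on low counts. Snai2 and S100a4 each passed in 4 fits. S100a4 varied widely among knockdown libraries, at 558, 417 and 819 CPM. Cdh2, Zeb1 and Prrx2 held in every fit, Vim passed in 2 of the 6, and the number of risers ranged from 2 without control replicate 2 to 6 without knockdown replicate 2. Of 5 tested members of the epithelial list 1 rose (1.33), 1 fell and 3 did not pass, with a median of -0.21. The riser did not pass without control replicate 1 or 2, or without knockdown replicate 1 or 2. The faller was Tjp1, a scaffold of tight junctions. Tjp1 read 171, 158 and 152 CPM against 104, 117 and 82.1 CPM (-0.68, SE 0.12) and passed in 5 of 6.

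Some regulators of actin assembly fell. The WAVE complex switches on Arp2/3, which nucleates branched actin at the cell edge, and formins build straight filaments. Of 31 tested members 4 fell, or 12.9% against 5.57% of all genes, and the other 27 did not pass, with a median of -0.15. The 4 were Wasf1 (WAVE1), its partner Abi2 (-0.39, SE 0.11), the Arp2/3 subunit gene Arpc4 (-0.46, SE 0.10) and the formin gene Diaph2 (-0.95, SE 0.18). These 4 are also the only members of the list that hold the 6-base word in the 3' UTR examined. For Wasf1 the limit given above on other transcripts applies. The word has the highest share of falls in these same data, these 4 genes included, so the match is a description and no separate support. Wasf1 stood at 26.2, 26.0 and 24.2 CPM in control and 6.84, 8.97 and 7.41 CPM in knockdown cells (-1.73, SE 0.14, adjusted p = 8.8e-05) and held in every fit. Abi2 passed in 1 of the 6 and did not pass with GC and length offsets (adjusted p = 0.13). Between 1 member (without control replicate 1) and 5 (without knockdown replicate 2) fell when a library was left out. Of 27 genes of actin filaments, myosin and tropomyosin 2 fell, or 7.41% against 5.57% of all genes. They were the adhesion linker Vcl (-0.46, SE 0.10) and the tropomyosin Tpm4 (-0.33, SE 0.09). Both were lost without control replicate 1, control replicate 2 or knockdown replicate 1.

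Genes of the p53 response gave a mixed picture. p53 arrests or kills damaged cells through its targets. Of 23 tested members 5 rose, or 21.7% against 3.76% of all genes, and 1 fell, or 4.35% against 5.57%. The other 17 did not pass, and the median was -0.02. Trp53 itself read 162, 174 and 172 CPM in control and 216, 229 and 221 CPM in knockdown cells (0.38, SE 0.09, adjusted p = 0.020). The other risers were Bax, which permeabilises mitochondria (0.64, SE 0.14), the stress sensor Sesn2 (0.50, SE 0.13), Gadd45a (0.67, SE 0.19) and the kinase Plk2 (0.47, SE 0.10). Rrm2b, the p53-induced subunit of ribonucleotide reductase, went the other way, from 37.2, 26.4 and 33.9 CPM to 14.7, 15.3 and 12.3 CPM (-1.21, SE 0.15, adjusted p = 9.7e-04). Rrm2b holds the 6-base word and held in every fit. The risers depended on single libraries, from none without control replicate 1 and 1 without knockdown replicate 1 to 5 without knockdown replicate 2. Of 29 genes of the BCL2 family, caspases and death receptors 3 rose, or 10.3% against 3.76% of all genes, and 2 fell, or 6.90% against 5.57%. Bid (0.42, SE 0.10), Bak1 (0.32, SE 0.09) and the pore-former Gsdmd (0.68, SE 0.16) rose, and the apoptosome genes Apaf1 (-0.39, SE 0.10) and Casp9 (-0.54, SE 0.15) fell. All 5 of these calls were lost without control replicate 1 and without knockdown replicate 1, and with GC and length offsets Bak1 (adjusted p = 0.20) and Apaf1 (adjusted p = 0.095) did not pass.

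Genes of the cell cycle had calls in both directions. Ccnd1, the cyclin that drives entry into the cycle, stood at 707, 754 and 709 CPM in control and 974, 967 and 964 CPM in knockdown cells (0.41, SE 0.08, adjusted p = 0.012). Myc (0.41, SE 0.09) and E2f1 (0.41, SE 0.10) rose as well, while the pocket protein gene Rbl1 (-0.42, SE 0.11) and the repressor E2f8 (-0.37, SE 0.10) fell. That gave 3 risers and 2 fallers among 29 tested genes of G1, or 10.3% and 6.90% against 3.76% and 5.57% of all genes. Knockdown libraries of Ccnd1 were close together and above every control. Of 34 genes of replication and mitosis 3 rose and 4 fell, or 8.82% and 11.8% against 3.76% and 5.57% of all genes. The risers were subunits of the replicative helicase, Mcm2 (0.39, SE 0.08), Mcm3 (0.38, SE 0.10) and Mcm7 (0.35, SE 0.09). The 4 that fell act later, Top2a in untangling chromosomes (-0.41, SE 0.10), Cenpe at the kinetochore (-0.49, SE 0.13), Bub1 in the spindle checkpoint (-0.46, SE 0.09) and Ccna2 in S phase and G2 (-0.34, SE 0.09). No gene of either list passed without control replicate 1 or without knockdown replicate 1. With GC and length offsets the counts were 5 risers and 6 fallers in the replication and mitosis list, and E2f1 did not pass (adjusted p = 0.052).

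Lists of respiratory chain and ribosome genes had medians above the 0.01 of all genes, as did short transcripts in general. Of 34 nuclear genes of the respiratory chain 5 rose, or 14.7% against 3.76% of all genes. The other 29 did not pass, and the median was 0.25. Examples were Uqcrq of complex III (0.69, SE 0.18), Cox8a of complex IV (0.60, SE 0.16) and Ndufa4 (0.35, SE 0.09). Cox5b (0.80, SE 0.22) had overlapping groups, with 46.2 CPM in control replicate 2 and 46.0 CPM in knockdown replicate 2, and Ndufv1 (0.43, SE 0.12) passed in 1 fit of 6. The list had 3 risers and a median of 0.11 without knockdown replicate 3, and 4 risers and a median of 0.09 with GC and length offsets, with which Cox5b, Cox8a and Ndufv1 did not pass. It had 9 risers without knockdown replicate 2, 1 without control replicate 3, and no riser without control replicate 1, control replicate 2 or knockdown replicate 1.

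Of 82 cytosolic ribosomal protein genes 8 rose and 1 fell, or 9.76% and 1.22%, with a median of 0.25. Of 78 mitochondrial ones 6 rose and 1 fell, or 7.69% and 1.28%, likewise at 0.25. The shares of all genes were 3.76% and 5.57%. Rps28 read 77.3, 94.0 and 69.2 CPM in control and 142, 99.5 and 186 CPM in knockdown cells (0.82, SE 0.19), and among abundant members Rps12 (0.36, SE 0.09) and Rpl19 (0.33, SE 0.09) rose. With GC and length offsets Rpl19 (0.03, adjusted p = 0.86) and Rps28 (0.70, adjusted p = 0.055) did not pass, and with them the cytosolic family had 6 risers, 6 fallers and a median of 0.07. The cytosolic risers numbered from none without control replicate 1 or knockdown replicate 1 to 30 without knockdown replicate 2, and the mitochondrial ones from none without the same libraries to 18. Without knockdown replicate 3 there were 8 cytosolic risers and 1 mitochondrial. The 2 fallers went against their families. Rpl7l1, a ribosome assembly factor that holds the 6-base word, read 127, 139 and 145 CPM against 95.6, 85.5 and 90.4 CPM (-0.61, SE 0.09), and Mrpl18 read 63.8, 59.4 and 66.4 CPM against 39.6, 36.2 and 42.3 CPM (-0.69, SE 0.10). Both held in every fit.

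Ribosome biogenesis factors, which make and modify ribosomal RNA in the nucleolus, had a median of 0.17. Of 32 tested members 28 did not pass and 4 rose, or 12.5% against 3.76% of all genes. The risers were Nhp2 (0.70, SE 0.17) and Gar1 (0.58, SE 0.14) of the pseudouridylation complex, the assembly factor Rrs1 (0.50, SE 0.12) and the methyltransferase Nop2 (0.40, SE 0.10). The median transcript length of the list was 3018 bases, against 1054 for cytosolic ribosomal proteins and 1591 for the respiratory chain. With GC and length offsets the median change was 0.20 with 5 risers, although Gar1 and Nop2 did not pass. No member rose without control replicate 1, control replicate 2 or knockdown replicate 1, and 7 rose without control replicate 3.

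The share of rising genes declined with transcript length and the share of falling genes grew. In the shortest bin of 5, up to 1977 bases, 6.70% rose and 23 of 2299 genes fell, with a median of 0.17. In the longest bin, beyond 5267 bases, 1.35% rose and 11.5% fell, with a median of -0.16. Without knockdown replicate 3 the same medians were 0.09 and -0.08, and the shares that fell were 1.96% and 10.2%. With offsets for GC content and length 4.31% of the shortest and 6.66% of the longest bin rose, and 4.35% and 9.19% fell. The composition of knockdown replicate 3 moved with this gradient, and how much of each group's change it carries was not tested beyond these values.

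**Figure D5:**
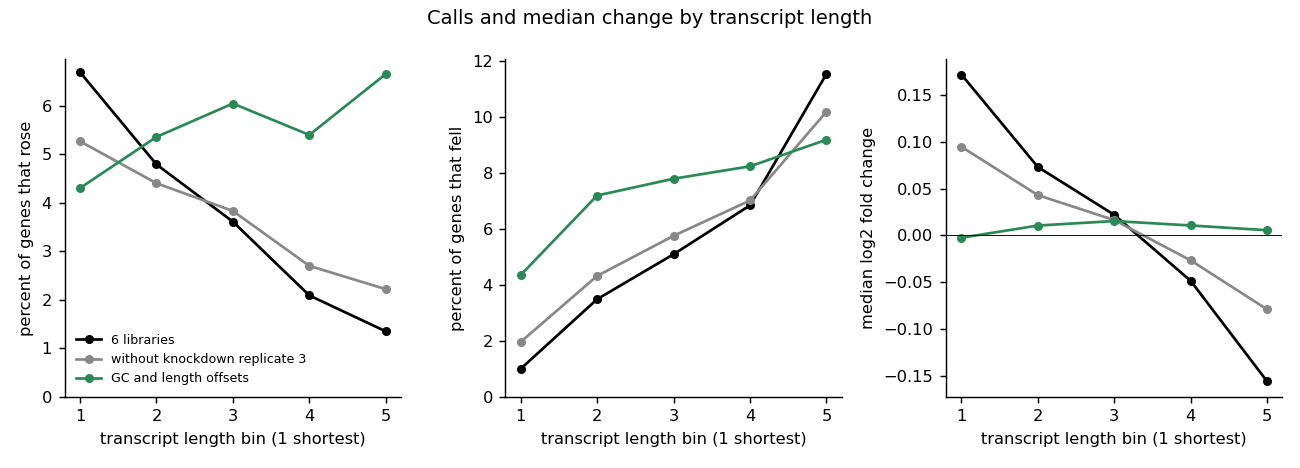
Percent of genes that rose (left), percent that fell (middle) and median log2 fold change (right) in 5 bins of transcript length, from the 6 libraries (black), without knockdown replicate 3 (grey) and with GC and length offsets (green). The black line of the right panel runs from 0.17 in the shortest bin to -0.16 in the longest, the grey line from 0.09 to -0.08, and the green line stays near 0.

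Among 20 cytosolic tRNA synthetases, which charge tRNAs with amino acids, Kars fell, Aars (0.46, SE 0.09) and Yars (0.34, SE 0.09) rose, and 17 did not pass. The risers are 10% of the list, against 3.76% of all genes, and Yars passed in 1 fit of 6. Of 28 genes of serine, one-carbon and nucleotide synthesis 2 rose, or 7.14% against 3.76% of all genes. They were the serine pathway enzyme Phgdh (0.49, SE 0.11) and the S-phase ribonucleotide reductase subunit Rrm2 (0.44, SE 0.12). No riser was left without control replicate 1, control replicate 2 or knockdown replicate 1. Rrm2 read 394, 409 and 524 CPM in control and 633, 613 and 574 CPM in knockdown cells, opposite in direction to its p53-induced counterpart Rrm2b. Ddb1, an adaptor of the CUL4 ubiquitin ligase and an abundant mRNA, read 1389, 1431 and 1338 CPM against 1034, 1043 and 1018 CPM (-0.44, SE 0.08, adjusted p = 0.0092), and it was lost without control replicate 1 or knockdown replicate 1.

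Sugar-transfer enzymes had calls in both directions. Of 17 genes of mucin-type O-glycosylation Galnt7 and Galnt1 (-0.35, SE 0.09) fell, and Galnt18 (0.52, SE 0.14) and the sialyltransferase St3gal4 (0.35, SE 0.10) rose. The fallers and the risers are 11.8% each, against 5.57% and 3.76% of all genes. Of these 4 genes, Galnt7 alone held in every fit, and St3gal4 did not pass with GC and length offsets (adjusted p = 0.056). In the list of 27 heparan and chondroitin sulphate genes, Csgalnact1, which starts chondroitin chains, read 24.4, 22.8 and 16.9 CPM in control and 12.02, 11.5 and 10.8 CPM in knockdown cells (-0.91, SE 0.16, adjusted p = 0.0051). Chpf, which extends those chains, rose by 0.45 (SE 0.12), and the other 25 did not pass. The 1 riser and the 1 faller are 3.70% each, against 3.76% and 5.57% of all genes, so neither share exceeds the background. Csgalnact1 held in every fit, while Chpf passed in 2. The list had 3 risers and 2 fallers without knockdown replicate 3, 5 and 4 with GC and length offsets, and no riser and 1 faller without knockdown replicate 1 or any 1 control library.

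Solute carriers had 7 risers and 14 fallers among 181 tested members, 3.87% and 7.73%, the first near the 3.76% of all genes and the second against 5.57%. Without control replicate 1 there were 1 riser and 4 fallers, and without knockdown replicate 1 there were 2 and 4, and without control replicate 2 there were 3 and 8. Besides Slc39a6, Slc41a2, a magnesium transporter, read 153, 149 and 156 CPM in control and 89.6, 85.6 and 73.9 CPM in knockdown cells (-0.89, SE 0.10, adjusted p = 4.2e-04). Slc45a4 read 45.9, 45.0 and 41.5 CPM against 23.2, 23.6 and 23.3 CPM (-0.93, SE 0.10, adjusted p = 4.2e-04). Both hold the 6-base word, as do 7 of the 14 fallers, and both held in every fit. Slc3a2, the heavy chain of several amino acid exchangers, rose by 0.55 (SE 0.10). Of 153 TMEM membrane protein genes 4 rose and 9 fell, with Tmem263 (-0.81, SE 0.12) and Tmem128 (-0.63, SE 0.10) among those that held in every fit. These shares, 2.61% and 5.88%, are near the background, and there was 1 riser, with 3 to 6 fallers, without knockdown replicate 1 or any 1 control library. Of 54 F-box proteins, the substrate adaptors of ubiquitin ligases, 3 fell and 1 rose, or 5.56% and 1.85%. The share that fell is that of all genes, 5.57%, and the share that rose is below the 3.76% of all genes. Of the 54, 7 hold the word, the 3 fallers among them. Fbxo10 (-0.82, SE 0.14) and Fbxo21 (-0.53, SE 0.09) held in every fit.

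Degradation routes had few calls. In autophagy, the starting kinase Ulk1 read 67.2, 67.8 and 61.1 CPM in control and 43.6, 42.0 and 42.7 CPM in knockdown cells (-0.62, SE 0.09, adjusted p = 0.0025) and held in every fit. Gabarapl1, a ubiquitin-like protein of the autophagosome membrane, rose by 0.41 (SE 0.09), and the other 27 of 29 tested members did not pass. The 1 riser and the 1 faller are 3.45% each, against 3.76% and 5.57% of all genes. Of 31 constitutive proteasome subunits Psmb3 rose (0.42, SE 0.10), and of 33 clathrin, endosome and retromer genes Ehd1, which shapes recycling endosomes, rose (0.41, SE 0.09). Each of these 2 lists thus had 1 riser, or 3.23% and 3.03% of its members against 3.76% of all genes, and no faller. With GC and length offsets the counts were 2 risers and 1 faller, and 3 and 2. Of 34 chromatin modifiers edgeR called 0, with 5 at an unadjusted p below 0.05, DESeq2 called 1, which fell, and limma voom called 0. With GC and length offsets 2 fell, and without knockdown replicate 2 there were also 2 fallers. Their median was -0.13, with 28 of the 34 at a negative value. Of 38 TRIM ubiquitin ligases edgeR called 0, with 9 at an unadjusted p below 0.05, DESeq2 called 1 in each direction and limma voom called 0. With GC and length offsets 2 rose and 2 fell. There were 1 riser and 2 fallers without knockdown replicate 2, and 2 risers without knockdown replicate 3.

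For orientation, the list of cholesterol synthesis and uptake, whose members are SREBP targets, had 16 fallers among 23 tested members and a median of -0.58, and the interferon gamma list had 9 risers among 23 and a median of 0.46. Their shares, 69.6% and 39.1%, were the highest of the lists examined in each direction, and both lists were already known from earlier work on these data. Without knockdown replicate 3 the counts were 17 and 10, and with GC and length offsets 17 and 10. They were 10 and 5 without control replicate 1, 10 and 6 without knockdown replicate 1, and 11 and 8 without control replicate 2. Outside these 2, among lists with at least 20 tested members, the share called in either direction was highest among the mesenchymal genes, at 6 risers and 3 fallers of 21, and the TGF-beta and BMP genes, at 4 and 7 of 28.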

How the data were processed

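Gene counts were analysed for 3 control and 3 Mbtps1-knockdown libraries of cultured MC38 cells, grouped by the sample titles; the other samples were not used here. The table deposited by the authors gives read counts as whole numbers for each gene symbol, without normalisation. Per the labels' protocols, bead-captured mRNA entered a VAHTS library kit. Per the submitters' processing notes the tools were STAR 2.7.1a, HTSeq 0.13.5, Cufflinks 0.17.3, cutadapt 1.18, FastQC 0.11.9 and SAMtools 1.3.1, with no roles given. They name the human build hg38, yet the symbols are mouse, so the build aligned to was, like the use of strand in counting, not given in the sources used here; overlapping or antisense genes cannot be told apart, and near-identical genes share reads.

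Of 15596 symbols 13014 have counts in these libraries. The lowest non-zero sum over the 6 is 13, so a gene at 0 is called listed at 0. edgeR 4.0.16 in R 4.3.3 was used with TMM normalisation, filterByExpr (1109 genes removed) and robust dispersions. Tests by glmQLFTest were two-sided, adjusted by Benjamini-Hochberg over 11905 genes, at a threshold of 0.05. The common biological coefficient of variation was 0.116. The SE was taken from the fold change and the F statistic. The fit was tested on simulated data. Alternatives were DESeq2 1.42.0 (size factors; Wald test), library totals, limma 3.58.1 voom, no filter, a stricter filter (1 CPM and 10 counts in 3 libraries), a replicate block, offsets for GC content and transcript length (11482 genes, 96.4%), and leaving out each library. An alternative chosen after seeing the data counted list members without the hexamer.

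Members and the 32 lists and 16 families were chosen with earlier results of these data known, and no list was tested. Named genes are Mbtps1; the 15 largest changes each way at a mean of at least 5 CPM without overlap; the 8 smallest p-values and the 5 most abundant called genes each way; and up to 4 called members each way, and 2 not called, of each list or family. Genes named beyond it, after their values were seen, are Sqstm1, Dusp6, Spred1, S100a4, Ndufv1, Gadd45a, Smad3, Skil, Acvr1 and Twist1. Transcript features come from GENCODE M21 (GRCm38) and miRNAs from RefSeq, matched by symbol. Same-numbered control and knockdown libraries did not deviate together (correlations 0.03, -0.27 and -0.19), so the numbers were not used to pair them. Reads carry no molecular identifiers.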

Additional observations from a re-analysis of the deposited data

How the results depend on the processing

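Against 448 risers and 663 fallers (1111 in all), counts stayed within 1.5 times under DESeq2's size factors, library totals, both filters, limma voom, the DESeq2 Wald test (663 and 856) and GC and length offsets (638 and 844). With the replicate number as a block, which the labels do not tie to shared cultures and the correlations do not bear out, 167 rose and 341 fell, 508 in all, and 77 of the 142 named calls passed. Leaving out 1 library gave 85 to 680 risers, 205 to 850 fallers and 290 to 1530 calls. The lowest risers, fallers and total came without control replicate 1, and the highest without knockdown replicate 2. Mbtps1 ranged from -1.89 to -1.80 when a library was left out and passed under every alternative. Of the 142 named calls, 124 passed with GC and length offsets, 141 with DESeq2's Wald test and 136 with limma voom, and no named call changed direction. The offsets cover too few histone genes for a check of that family. The causes were not tested.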

Other observations

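Of 46 tested histone genes 9 rose, or 19.6% against 3.76% of all genes, 1 fell and 36 did not pass, with a median log2 fold change of 0.72, and 39 of the 46 had a positive value. Each symbol was counted, and 120 of all tested symbols have counts identical to those of another symbol. How many of those 120 are histone genes is not given here. Without knockdown replicate 3 there were 6 risers and a median of 0.53, and without control replicate 1 there were 2. Most members were at a few CPM, and RNA quality was not measured here.

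By chromosome, genes on chromosome 18 and on the X had few risers beside the 3.76% of all genes that rose and the 5.57% that fell. Of 303 tested genes on chromosome 18, 0.66% rose and 8.91% fell, and of 369 on the X, 1.08% and 7.05%. On chromosome 7, 4.95% of 869 genes rose and 2.88% fell. The median transcript lengths were 4133, 3364 and 3144 bases. The cause was not tested.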
